A study of Schizosaccharomyces pombe with 16 samples.

Results

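RNA that came down with the fission yeast protein Zfs1 was compared directly with RNA that came down with a mock bait, with no input library in the ratio. The comparison used the immunoprecipitated (IP) libraries only, 3 of Zfs1-TAP and 3 of GFP-TAP, 6 of the 16 libraries of the series. The Zfs1 strain carried zfs1-TAP::kanMX6 and was h-, and the mock strain carried leu1Δ::[Pnmt1-gfp-TAP-Tnmt1 ura4+] ura4-D18 and was h+, so that GFP-TAP was made from the nmt1 promoter whereas Zfs1-TAP was made from its own locus. Both strains grew in EMM, a minimal medium, at 25°C to early-mid exponential phase, and each was processed in experiments 1, 2 and 3. The TAP tag contains Protein A domains, and the baits were captured on beads coated with an antibody to Protein A. Sequencing of the recovered RNA (RIP-Seq) gave, per transcript, the normalized read counts that are used here. Mating type, auxotrophic markers, the promoter and the bait all differ between the strains, and within the IP libraries they cannot be told apart. The other libraries, 6 inputs and 4 RNA-Seq libraries of the wild type and the zfs1Δ mutant, are used only as descriptions beside the IP ratio.

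Zfs1 is a CCCH-type tandem zinc-finger protein of the family of human tristetraprolin. Proteins of this family bind AU-rich elements (AREs) in mRNAs, of which an AU-rich nonamer is the best known high-affinity form, and recruit the deadenylation and decay machinery. In fission yeast Zfs1 is known for its roles in mating, cytokinesis, cell size and cell adhesion. A mock IP recovers RNA that adheres to beads, tag or tube, so that a ratio of Zfs1 IP to GFP IP compares 2 recovered populations and not a recovered population with the cell.

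The sites below carry the nonamer in its DNA form TTATTTATT, in capitals, with 10 bases on each side in lower case, and they are shown because the IP ratio followed the number of such sites. Each reads from 5′ to 3′ in the sense direction and comes from RefSeq, assembly ASM294v3. Copies whose 29-base window overlaps that of a copy shown are left out.
arz1 copy 1, 3′UTR: ttattgctaaTTATTTATTttttcgatta
arz1 copy 3, 3′UTR: ttaccattaaTTATTTATTtatctatcta
SPBC20F10.03 copy 1, 3′UTR: cgttctgcctTTATTTATTtatttggtta
SPBC20F10.03 copy 4, 3′UTR: aaattatttaTTATTTATTtattgaatca
cdr1 copy 1, 5′UTR: gttctacataTTATTTATTtattcattca
pyp2 copy 1, coding sequence: ccaaaaaaatTTATTTATTaagcaatgga
puc1 copy 1, 5′UTR: agcgacaactTTATTTATTgcttggtacg
puc1 copy 2, coding sequence: tgctgaggatTTATTTATTcgtatggaac
puc1 copy 3, 3′UTR: tatatttttgTTATTTATTtatatgatac
zfs1 copy 1, 5′UTR: tatttgggatTTATTTATTtttatttcct
zfs1 copy 2, 3′UTR: actttattctTTATTTATTtgatgacctt
The capitals of arz1 copies 1 and 3 lie at chrIII:2326735-2326743 and chrIII:2326882-2326890 on the plus strand, and those of SPBC20F10.03 copies 1 and 4 at chrII:3289193-3289201 and chrII:3289278-3289286, also on the plus strand. The copy of cdr1 is at chrI:2682238-2682246 on the minus strand, and that of pyp2 at chrI:5203155-5203163 on the plus strand. On the minus strand lie the 3 copies of puc1, at chrII:3701589-3701597, chrII:3700017-3700025 and chrII:3699317-3699325, and both copies of zfs1, at chrII:3486762-3486770 and chrII:3483209-3483217.

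Of 5875 transcripts tested, 1158 (19.7%) were higher in the Zfs1 IP and 1415 (24.1%) were lower, with limma and an adjusted p-value under 0.05. These 2 percentages are the background against which the counts of gene groups are read. An increase of at least 8-fold was called for 348 transcripts (5.92%), and a decrease of at least 8-fold for 52 (0.885%), so that the large differences lay mostly on the Zfs1 side. The median log2 ratio was 2.22 among the higher transcripts and −1.56 among the lower ones, and the smallest called differences were 0.67 and −0.69. The standard error of a log2 ratio (n = 3 libraries a side) had a median of 0.38 with 5th and 95th percentiles of 0.25 and 1.35. All 3 Zfs1 values exceeded all 3 GFP values for 1146 of the 1158 higher transcripts (26.7% of all tested had this order), and the reverse held for 1265 of the 1415 lower ones (24.6% of all tested). Across transcripts, log2 values correlated with r between 0.867 and 0.9505 within the Zfs1 IPs, between 0.857 and 0.901 within the GFP IPs and between 0.680 and 0.797 between the baits, a description over transcripts that share libraries.

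The division between higher and lower depended on the scaling, because the median log2 ratio over all transcripts was −0.13 with every library centred on its own median, 0.03 with the values as deposited and 0.10 with equal totals. Of all calls, 45% were higher in the centred data, against 54.5% (1215 higher, 1016 lower) as deposited and 55.6% (1310 higher, 1046 lower) with equal totals. Of the 1158 higher transcripts, 1144 and 1158 remained higher under these scalings, and of the 1415 lower ones 1016 and 1045 remained lower. Without the Zfs1 IP of experiment 3, 831 transcripts were higher and 906 lower. The p-values measure the spread between experiments. In the plot of ratio against level, large ratios are more frequent among the higher transcripts than among the lower ones.

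**Figure D1:**
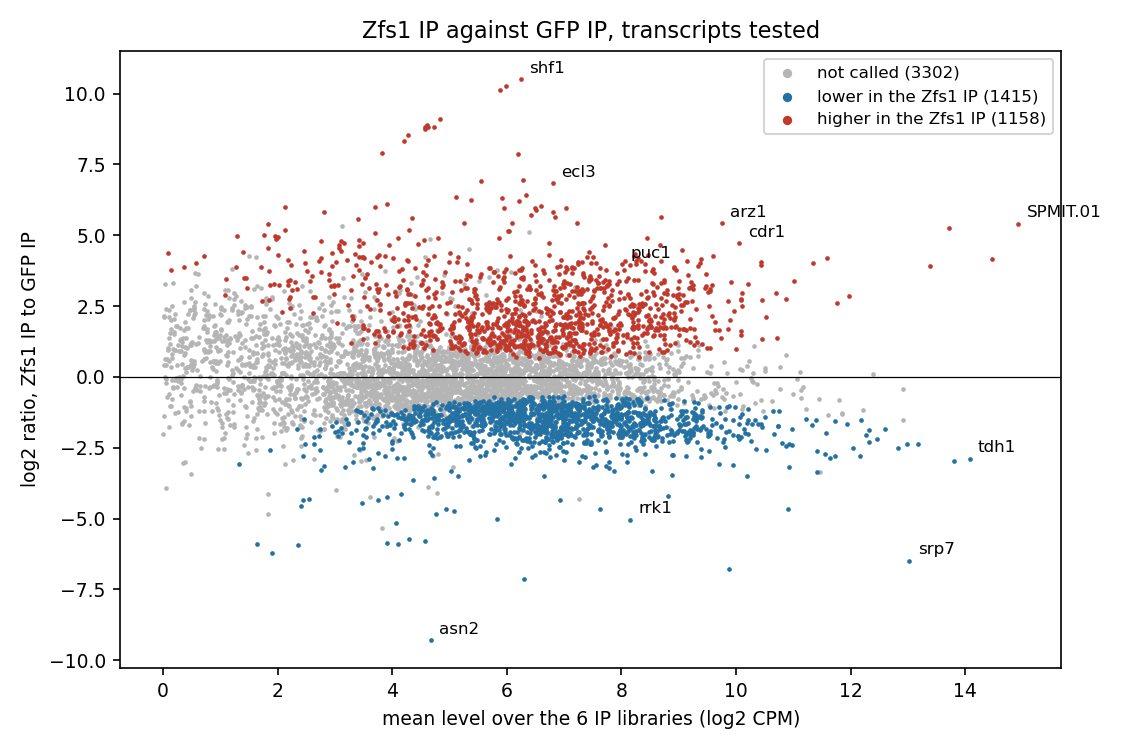
Log2 ratio of Zfs1 IP to GFP IP (vertical axis) against the mean level over the 6 IP libraries in log2 CPM (horizontal axis), 1 point per transcript tested. The 1158 higher transcripts (red) reach ratios of 10.52, and the 1415 lower ones (blue) reach −9.28.

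The largest ratios belonged to transcripts that the files list at 0 in the GFP IPs, and for these no fold is given. A 0 in these files may be a failed estimate, which was not tested. Among these transcripts is hem14, a gene of haem synthesis. The values of hem14 were 1042, 1811 and 1417 in the Zfs1 IPs of experiments 1 to 3, and shf1 had 1120, 2111 and 1874. Both were listed at 0 in all 3 GFP IPs, as were bag101, flx1, lsg1, cwg2, SPAC959.11, mat1-Mc and the non-coding RNAs SPNCRNA.1687, SPNCRNA.1083 and SPNCRNA.673. With SPNCRNA.1214, listed under 0.5 in each GFP IP, these were the 12 most positive called transcripts whose mean reached 10 CPM (counts scaled to equal library totals) with no overlap between the groups. On the same strand, shf1 overlaps the non-coding RNA SPNCRNA.1025, bag101 overlaps top3, SPAC959.11 overlaps omh6 and SPNCRNA.1083 overlaps SPNCRNA.1082, so that their counts are uncertain. The inputs of bag101 (log2 ratio 4.13), SPAC959.11 (2.88), flx1 (2.61) and mat1-Mc (8.06) were also higher in the Zfs1-TAP strain, and the part of the strains in these IP ratios was not tested. In all, 15 of the higher transcripts were under 0.5 in every GFP IP, and 4 of the lower ones were under 0.5 in every Zfs1 IP.

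Where all 6 libraries had at least 10 normalized counts, a condition added after the values were seen, 1004 transcripts were higher and 1388 were lower. The 4 transcripts that the study examined as Zfs1 targets, arz1, ecl3, cbf12 and puc1, were all higher, with a median log2 ratio of 4.77. The study took arz1, ecl3 and cbf12 as targets known from earlier work and picked puc1 from its IP libraries, so that puc1 is not independent evidence. In the set with at least 10 counts throughout, arz1 had the largest ratio. The normalized counts of arz1 were 22157, 22656 and 10796 in the Zfs1 IPs of experiments 1, 2 and 3, and 549.8, 326 and 268 in the GFP IPs. The log2 ratio of arz1 was 5.43 (SE 0.38, adjusted p = 9.79e-05). The 2 groups were far apart in every experiment, and the input levels of arz1 differed little between the strains (log2 ratio of inputs −0.07).

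A ratio of the same size was measured for oxr1, whose product is related to oxidation resistance proteins, with 3089, 4329 and 2360 in the Zfs1 IPs and 76.5, 55.9 and 64.9 in the GFP IPs (log2 ratio 5.42, SE 0.32, adjusted p = 7.45e-05). The next coding transcripts were SPAC1B3.15c (4.89), rpm2 (4.72), cdr1 (4.71), rhp42 (4.66), SPAC3F10.12c (4.65) and pyp2 (4.42). Of these 8 transcripts, 5 hold 2 or 3 nonamers, pyp2 holds 1, and rpm2 and SPAC3F10.12c hold none. The product of rhp42 is a nucleotide excision repair protein, and rhp7, of the same repair process, also had 3 nonamers and a log2 ratio of 3.33 (SE 0.45). The values of rhp42 were 7359, 13049 and 6456 in the Zfs1 IPs against 364, 258 and 290.5 in the GFP IPs. The transcript of gpa2, the G protein α subunit of glucose and cAMP signalling, varied little between libraries, with 14673, 16054 and 17801 against 896, 689 and 699 (log2 ratio 4.25, SE 0.27). Its 5′UTR holds 1 nonamer.

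**Figure D2:**
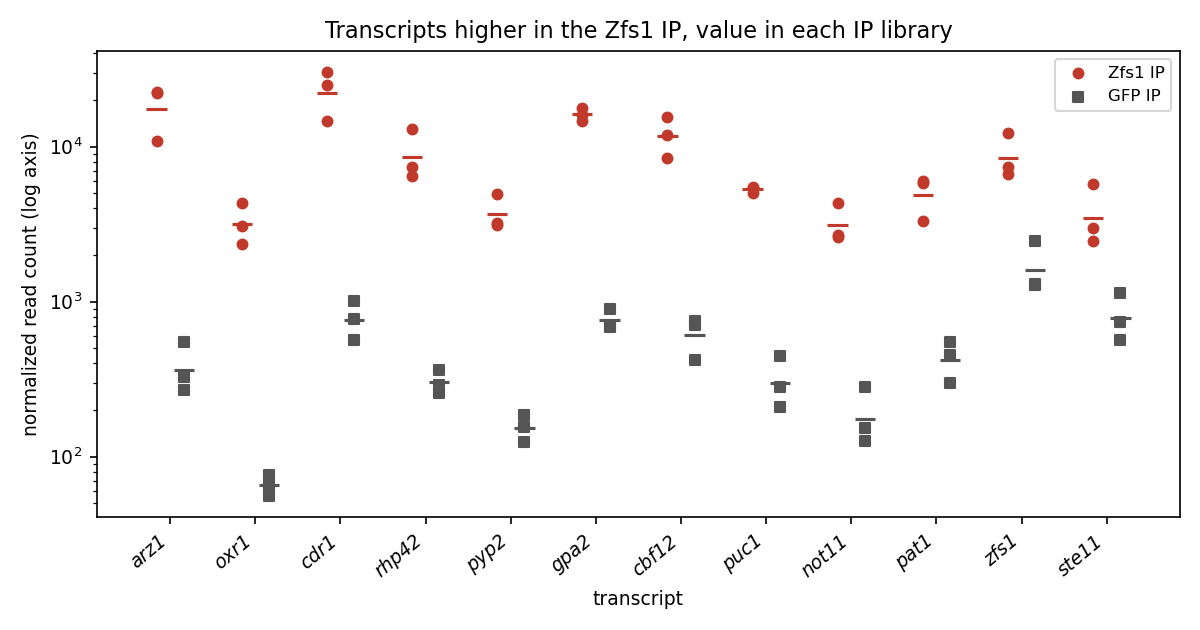
Normalized read count in each Zfs1 IP (red circles) and GFP IP (grey squares) on a log axis (vertical) for 12 transcripts (horizontal) higher in the Zfs1 IP, with the geometric mean of 3 libraries as a bar. The groups do not overlap for any of the 12, from arz1 with a log2 ratio of 5.43 to ste11 with 2.00.

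At the other end, among called transcripts with at least 10 counts in each library, lay both mRNAs and non-coding RNAs. The mRNAs included cda1 (log2 ratio −4.67, SE 0.63), with 72.5, 18.1 and 16.1 in the Zfs1 IPs against 748, 835.5 and 451 in the GFP IPs, and fta7 (−4.35, SE 0.78). Several of the non-coding RNAs are known as parts of ribonucleoproteins, and they are described here after their values were seen. The RNA of the signal recognition particle, srp7, had 2651, 3433 and 1218 normalized counts in the Zfs1 IPs against 140502, 386506 and 105166 in the GFP IPs, a log2 ratio of −6.48 (SE 0.54, adjusted p = 0.000133). It made up 1.11% to 2.46% of the GFP IP totals and at most 0.0283% of the Zfs1 IP totals. The RNA of RNase P, rrk1, had 152, 267 and 188 against 2995, 8605 and 7668 (log2 ratio −5.04, SE 0.40), and that of RNase MRP, mrp1 (SPNCRNA.82), had 277, 869.7 and 617 against 4035, 14120 and 12017 (−4.21, SE 0.52). The telomerase RNA ter1 had 183, 233 and 206 against 1990, 2637 and 1714 (−3.49, SE 0.24, adjusted p = 9.79e-05). None of these 4 RNAs holds the nonamer, and the groups did not overlap for any of them.

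The 12 most negative transcripts that met the same rule as the most positive ones also included asn2, an asparagine synthetase transcript, which was listed at 0 in all 3 Zfs1 IPs and had 432, 556 and 712 in the GFP IPs. For 8 of the 12 at least 1 Zfs1 library was under 5 counts, as for ucp6 (0, 248.5 and 9.23 against 1975, 2288 and 1109), so that the size of these ratios rests on very low values. The others were dpe2, bhd1, tyw3, mrp4, tht2, SPNCRNA.491, ras1, sno20, srp7 and rrk1, and all 12 were without a nonamer.

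Small nucleolar RNAs, which guide the modification and cleavage of ribosomal RNA, moved the same way. Of the 17 tested under snoRNA IDs, 14 were lower and none was higher, with a median log2 ratio of −2.86 against −0.13 over all transcripts. The snoRNA snR30, which acts in the processing of the small-subunit ribosomal RNA, had 1130, 2502 and 1532 in the Zfs1 IPs against 18627, 46137 and 60057 in the GFP IPs (log2 ratio −4.67, SE 0.47, adjusted p = 0.000255). Experiments differed more for sno20, with 24.5, 113 and 49.95 against 307, 9340 and 47373. The snoRNA count was 8 without the GFP IP of experiment 3 and between 10 and 12 without any other single library. Another entry of the same name overlaps snR30 in the annotation, and the same holds for mrp1, so that their counts could be shared.

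IDs of the mitochondrial genome lay on the Zfs1 side, with 5 of 11 higher, none lower and a median of 1.5. SPMIT.01 had 659056, 425071 and 864718 normalized counts in the Zfs1 IPs against 20832, 16526 and 6524 in the GFP IPs (log2 ratio 5.41, SE 0.72, adjusted p = 0.000764). SPMIT.04 had 479610, 104651 and 214040 against 8483, 4496 and 3620. The mitochondrial IDs together took 16.6%, 4.85% and 13.03% of the Zfs1 IP totals and 0.979%, 0.407% and 0.384% of the GFP IP totals. In the inputs both transcripts were lower in the Zfs1-TAP strain (log2 ratios −0.54 and −1.13), in the opposite direction to the IPs. Among nuclear non-coding RNAs (SPNCRNA IDs), 147 of 917 (16%) were higher and 45 (4.91%) lower, with a median log2 ratio of 0.75. The share of higher ones was thus under the 19.7% over all transcripts, and that of lower ones was under 24.1%. Without the Zfs1 IP of experiment 3, the counts for these RNAs were 70 higher and 25 lower. For coding IDs the numbers were 1006 higher and 1353 lower of 4924, with a median of −0.25.

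Messenger RNAs of the translation and glycolysis machinery were lower as groups. Of 131 cytosolic ribosomal protein transcripts, 115 were lower and 1, rps1202 (log2 ratio 1.65, adjusted p = 0.0411), was higher, with a median of −1.67. None of the 131 was higher with no filter on low values, in the untrended fit, or with inputs subtracted over 12 libraries. The same held without some single libraries. The numbers were 66 lower of 76 for the large subunit and 49 lower of 55 for the small subunit. Each of the 3 most negative, rpl301 (−2.62), rpl2701 (−2.55) and rps001 (−2.47), belongs to a family with near-identical copies that could share reads. Without the Zfs1 IP of experiment 3, 67 were lower, without the GFP IP of experiment 3, 69, and without that of experiment 2, 74, while the median stayed between −2.12 and −1.41.

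Of 14 transcripts of glycolysis and alcoholic fermentation, 12 were lower and none was higher (median −2.48). The glyceraldehyde-3-phosphate dehydrogenase transcript tdh1 had 24856, 100677 and 46985 in the Zfs1 IPs against 194996, 645619 and 272475 in the GFP IPs (log2 ratio −2.89, SE 0.82, adjusted p = 0.0206). The groups did not overlap, but each spread widely over the experiments, and with the values as deposited tdh1 was not called (adjusted p = 0.055). The hexokinase transcript hxk1 was more even, with 1673, 3303 and 1981 against 16764, 19049 and 14588 (−3.07, SE 0.29, adjusted p = 0.000179), and the other dehydrogenase, gpd3, had 959, 1006 and 604 against 9021, 9513 and 4822 (−3.32, SE 0.31). Only 6 of the 14 were lower without the Zfs1 IP of experiment 1 or of experiment 3, and 8 with the values as deposited, with medians of −2.38, −2.37 and −2.32. Phosphofructokinase, pfk1, did not pass (−1.31, adjusted p = 0.0669). The value of adh1, the alcohol dehydrogenase of a strongly fermenting cell, was 43.9, 23.3 and 22.96 against 147, 182 and 3.06, too low to be read as its level.

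Cytoskeletal transcripts showed the same side, with 4 of 6 lower. These were actin, act1 (−1.97, SE 0.45), and the tubulins nda2 (−2.19), atb2 (−1.97) and nda3 (−1.22). With the values as deposited nda3 was not called (−1.06, adjusted p = 0.0824), and 3 of 6 were lower. The count was 2 without the Zfs1 IP of experiment 3. Neither tropomyosin, cdc8 (−0.57, adjusted p = 0.173), nor the myosin light chain cdc4 (0.00, adjusted p = 0.995) passed.

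**Figure D3:**
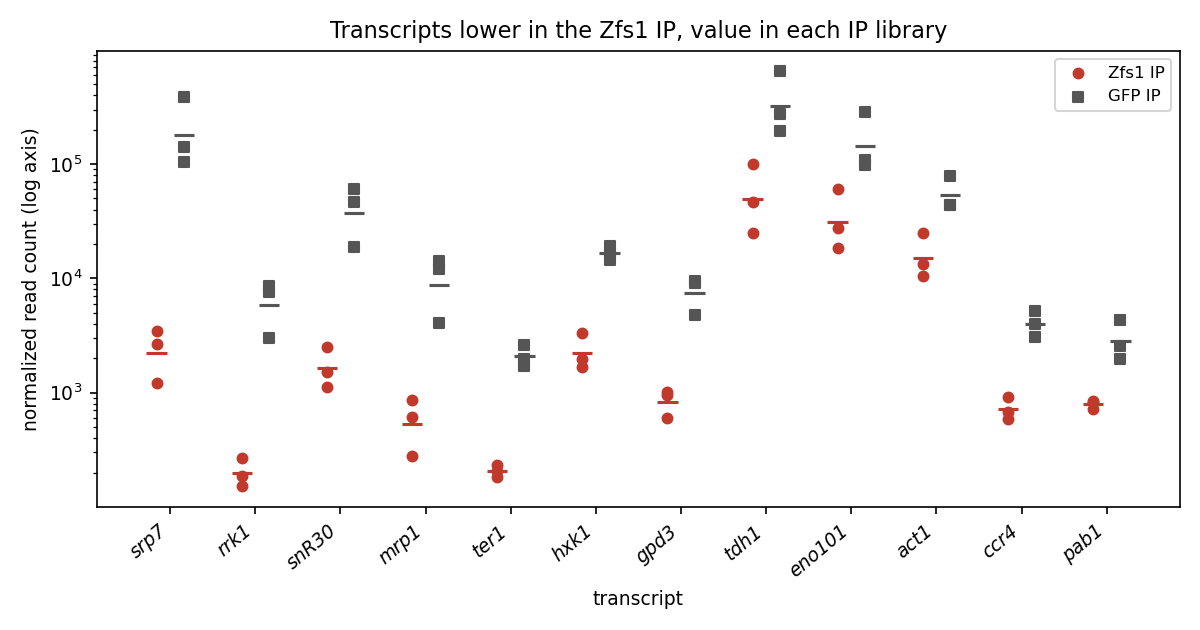
Normalized read count in each Zfs1 IP (red circles) and GFP IP (grey squares) on a log axis (vertical) for 12 transcripts (horizontal) lower in the Zfs1 IP, with the geometric mean of 3 libraries as a bar. The non-coding RNAs srp7, rrk1, snR30, mrp1 and ter1 stand at log2 ratios of −6.48 to −3.49. The mRNAs lie between −3.32 (gpd3) and −1.97 (pab1).

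The level of a transcript in the inputs went with its ratio. Transcripts with an annotated length were divided into 5 equal bins by their mean input CPM per kb, 1165 in each. The median log2 ratio was 0.94, 0.43, −0.08, −0.44 and −1.24 from the lowest to the highest bin. In the lowest bin 22% were higher and 2.66% lower, and in the highest bin 8.5% were higher and 58.9% lower. The part of abundance in the low ratios of ribosomal protein and glycolytic transcripts was not tested. At every level, transcripts with a nonamer had the higher median, which was 2.62 with and 0.73 without a nonamer in the lowest bin, and 1.20 with and −1.28 without in the highest.

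The nonamer TTATTTATT was searched on the sense strand of 5825 tested transcripts with an annotation, overlapping copies included, and 647 (11.1%) held at least 1. It was present in 437 of 1147 higher transcripts (38.1%), in 14 of 1411 lower ones (0.992%) and in 196 of 3267 that were not called (6.0%). On the antisense strand the shares were 6.36%, 4.25% and 5.69%. Among the transcripts higher by at least 8-fold, 46.3% held it. Under all 16 alternatives the share lay between 34.2% and 44.5% for the higher transcripts and between 0.632% and 1.39% for the lower ones.

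The ratio followed the number of copies. The median log2 ratio was −0.33 with no nonamer (n = 5178), 1.80 with 1 (n = 542), 2.82 with 2 (n = 81) and 3.49 with 3 or more (n = 24). Accordingly 13.7%, 63.3%, 91.4% and 83.3% were higher in the Zfs1 IP. Copies in a run can overlap, as both copies of cdr1 do, and with overlapping copies counted as 1 stretch the medians were 1.86 (n = 581), 2.88 (n = 58) and 4.05 (n = 8) for 1, 2 and 3 or more stretches. The medians of the input ratio in the same classes by copies were within 0.08 of 0.

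**Figure D4:**
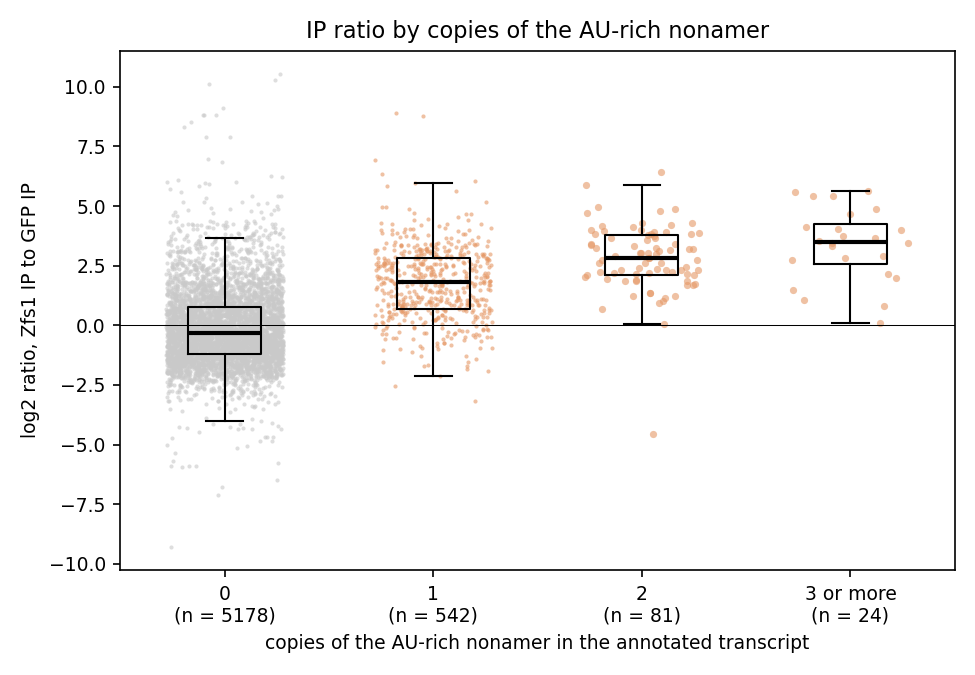
Log2 ratio of Zfs1 IP to GFP IP (vertical axis) by the number of copies of the nonamer in the annotated transcript (horizontal axis), 1 point per transcript, with boxes for the median and quartiles and whiskers to 1.5 times the interquartile range. The medians are −0.33, 1.80, 2.82 and 3.49, and the class without a copy spans the whole range of ratios.

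Most of the called transcripts did not hold the nonamer, since 710 of the 1147 higher ones had no copy. Of these 710, 68.6% held the shorter core TATTTAT, against 33.8% of the transcripts not called and 17.2% of the lower ones without a nonamer. Transcripts with the heptamer but no nonamer had a median log2 ratio of 0.35, and those with neither had −0.67. The pentamer ATTTA, which lies within both, was present in 94.2% of all transcripts. Among protein-coding transcripts with a single nonamer, 83 of 96 (86.5%) were higher when it lay in the 5′UTR, 104 of 156 (66.7%) when it lay in the coding sequence and 135 of 224 (60.3%) when it lay in the 3′UTR, with medians of 2.53, 1.67 and 1.49. Protein-coding transcripts with the nonamer on the antisense strand only had a median of −0.47, and 12.9% of them were higher. The median length of the 5′UTR was 144 nt for the higher protein-coding transcripts, against 56 nt for the lower ones and 84 nt for all 4897, and median 3′UTRs of 290, 216 and 250 nt.

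The 14 lower transcripts with a nonamer were few. The ribosomal protein transcript rpl702 (−1.82), sam1, which encodes the S-adenosylmethionine synthetase (−1.69), and the carboxypeptidase Y transcript cpy1 (−1.54) were among them. The only one with 2 copies, eta2, had 0, 72.98 and 0 against 64.8, 68.2 and 150.5, and its groups overlapped. Of the 24 transcripts with 3 or more copies, none was lower and 4 were not called, among them SPAC22F8.05 (0.79, adjusted p = 0.121).

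Cyclins and regulators of G1, the phase in which fission yeast commits to mating or to a new cycle, were mostly on the Zfs1 side, with 10 of 15 higher and none lower (median 1.40). The G1 cyclin transcript puc1, with a copy of the nonamer in each region of its mRNA, had 5418, 5012 and 5464 in the Zfs1 IPs against 445, 209.9 and 280.1 in the GFP IPs (log2 ratio 3.99, SE 0.35, adjusted p = 0.000148). The Zfs1 values were almost the same in the 3 experiments. The cyclin transcript pas1, with 2 nonamers in its 5′UTR, spread more, with 72823, 32114 and 15016 against 3940, 2939 and 1886 (3.39, SE 0.57). The transcript of its kinase partner, pef1, had a log2 ratio of 2.01, and the genes of the G1/S transcription factor MBF and its activators were all higher, namely rep2 (2.77), res2 (1.90), rep1 (1.86, with overlapping groups), res1 (1.40) and cdc10 (1.32). The MBF repressor genes nrm1 (−0.44, adjusted p = 0.207) and yox1 (0.43, adjusted p = 0.44) did not pass. The kinase cdc2 had 1848, 1466 and 1378 against 543, 455 and 468 (1.51, SE 0.28), and among its mitotic and S-phase partners cig1 passed (0.94, adjusted p = 0.0296) whereas cig2 (1.30, adjusted p = 0.0853) and cdc13 (0.11, adjusted p = 0.747) did not. The count was 7 without the Zfs1 IP of experiment 3. With the difference between inputs subtracted over 12 libraries, 8 were higher and 1 was lower.

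In the control of cell size, 5 of 9 transcripts were higher and none was lower. With the difference between inputs subtracted over 12 libraries, 5 were higher and 1 was lower. The kinase transcript cdr1, whose product inhibits Wee1, had 14600, 30336 and 25106 against 774, 1014 and 566 (log2 ratio 4.71, SE 0.31, adjusted p = 7.45e-05). The Wee1-like kinase mik1 (3.14, SE 0.38), the phosphatase cdc25 (2.08, SE 0.36), the kinase wee1 itself (1.78, SE 0.27) and nif1 (1.1, SE 0.30) followed. Thus transcripts of both the inhibitors of mitotic entry and its activators were higher. The transcripts of cdr2 (−0.01, adjusted p = 0.977) and pom1 (0.45, adjusted p = 0.17), whose products form the cortical gradient and nodes upstream of Wee1, did not pass.

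Of 8 tested transcripts of pheromones, their receptors and transporters, 2 were higher and none was lower, a share of higher transcripts near the 19.7% over all. The count was 1 without the Zfs1 IP of experiment 1 or of experiment 3, and 3 without the GFP IP of experiment 3. The 2 were mfm2, described with the strain markers, and mam1, the transporter of M-factor, with 5247, 2958 and 3201 against 735, 243 and 287 (log2 ratio 3.14, SE 0.48, adjusted p = 0.00139) and 1 nonamer. The receptor transcripts map3 (0.94, adjusted p = 0.0705) and mam2 (0.58, adjusted p = 0.298) did not pass.

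Of 23 regulators of sexual differentiation, 6 were higher and 4 were lower, with a median of 0.28, shares near those over all transcripts (19.7% and 24.1%). The kinase transcript pat1, whose product blocks meiosis, had 5848, 6008 and 3330 against 296, 550.1 and 451 (log2 ratio 3.38, SE 0.32, adjusted p = 0.000179), with no nonamer in its annotated transcript. The kinase pka1, the effector of cAMP, had a log2 ratio of 2.17, the TORC2 target gad8 1.99, and the RNA-binding repressors msa1 and nrd1 had 1.83 and 1.68. The transcription factor ste11, the master regulator of mating genes, had 3005, 5735 and 2453 against 562, 1134 and 742 (2.00, SE 0.33, adjusted p = 0.00197), although its input level was lower in the Zfs1-TAP strain (log2 ratio −0.93). The lower ones were ras1 (−4.83, SE 0.96), mei2 (−1.03), tor2 (−1.15) and cgs1 (−0.93), of which ras1 rested on 90.5, 4.63 and 16.7 counts in the Zfs1 IPs. With the values as deposited neither mei2 (adjusted p = 0.0627) nor cgs1 (adjusted p = 0.0805) was called. The input level of mei2 was also lower in the Zfs1-TAP strain (−1.61).

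Of the stress-activated MAPK pathway, 5 of 15 transcripts were higher and 3 were lower, against 19.7% and 24.1% over all transcripts. The phosphatase transcript pyp2, whose product inactivates the kinase Sty1, had 3097, 4945 and 3208 against 123, 185 and 156 (log2 ratio 4.42, SE 0.27, adjusted p = 7.45e-05), and its site is in the coding sequence. The transcription factor partners pcr1 (3.86, SE 0.61) and atf1 (1.96, SE 0.42), the phosphotransfer gene mpr1 (2.38) and the kinase cmk2 (0.93) were the others, of which atf1 and mpr1 overlap other genes on the same strand, while sty1 itself did not pass (0.65, adjusted p = 0.271). The wis4, win1 and pyp1 transcripts were lower by at most 0.95 on the log2 scale, and none of the 3 was called with the values as deposited or with equal totals.

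The septation initiation network, which triggers cytokinesis, had 3 of 13 higher and 2 lower, with a median of 0.06. The share of higher transcripts was near the 19.7% over all, and that of lower ones was under the 24.1% over all. The spindle pole scaffold ppc89 had 6683, 8924 and 5294 against 609.8, 922 and 709 (log2 ratio 3.05, SE 0.25, adjusted p = 0.000133), cdc14 had 1605, 2609 and 3029 against 142, 86.0 and 2.93 (5.84, SE 1.12), and the kinase cdc7 had a ratio of 1.82. The size of the cdc14 ratio rests on the very low GFP library of experiment 3. The GTPase spg1 (−1.08) and the scaffold cdc11 (−0.95) were called lower in the centred data but not under either other scaling.

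Of the transcripts of CSL transcription factors and cell adhesion, 9 of 14 were higher and 1 was lower (median 2.01). The CSL factor transcript cbf12, with 3 nonamers in its 3′UTR, had 11968, 15590 and 8430 against 749, 418 and 708 (log2 ratio 4.10, SE 0.36, adjusted p = 0.00015). The other CSL factor, cbf11, had 846, 1082 and 930.0 against 2992, 2033 and 1842 (−1.40, SE 0.27, adjusted p = 0.00405), so that the 2 paralogues fell on opposite sides, with no overlap in either. Adhesin transcripts were higher for pfl4 (4.10), pfl7 (4.44), pfl8 (4.08), pfl3 (1.92) and pfl5 (1.92), and so were those of the MADS-box factors mbx1 (3.82) and mbx2 (2.99). The flocculin transcript gsf2 had 10289, 9155 and 5502 against 2085, 2265 and 1017 (2.09, SE 0.35), but its inputs differed by 1.62 in the same direction, and those of pfl3 by 1.16. With the difference between inputs subtracted over 12 libraries, 6 of the 14 were higher and 1 was lower. Neither gsf2 (0.48, adjusted p = 0.601) nor pfl3 (0.76, adjusted p = 0.224) was then called. The 3 Ecl transcripts, which encode small proteins that extend chronological lifespan, were all higher, with log2 ratios of 6.83 for ecl3 (2027, 3014 and 2386 against 39.5, 17.95 and 8.27), 2.88 for ecl1 and 1.56 for ecl2. The paper reports that its GFP IP gave no ecl3 reads, whereas the values used here are low but present.

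Transcripts of the deadenylation and decay machinery, through which proteins of this family act, lay on both sides, with 5 of 20 higher and 9 lower (median −0.74). The share of higher ones was near the 19.7% over all transcripts, and that of lower ones was above the 24.1% over all. The CCR4-NOT subunit transcript not11, with 2 nonamers, had 2702, 4329 and 2610 against 153, 281 and 126 (log2 ratio 3.99, SE 0.30, adjusted p = 0.000113), and the decapping subunit dcp1 had 1486, 715 and 1050 against 63.0, 71.4 and 80.1 (3.69, SE 0.41). The counts of dcp1 are uncertain because another annotated gene overlaps it on the same strand. Other members above 0 were pdc1 (1.49), rcd1 (1.22) and the exonuclease exo2 (1.02). The catalytic deadenylase ccr4 was the most negative called, with 588.5, 919.9 and 674 against 5223, 4004 and 3056 (−2.64, SE 0.27, adjusted p = 0.000268). Transcripts of pan2 (−1.99), pab1 (−1.97), upf1 (−1.85), ste13 (−1.78), caf1 (−1.13), ski2 (−1.21), not1 (−0.91) and pan3 (−0.90) were also lower. Of these, the last 3 were not called under either other scaling. In fission yeast the symbol pab1 names a regulatory subunit of the phosphatase PP2A and not the poly(A)-binding protein. It is counted in the 20 and the 9 although it is not part of the decay machinery. The transcript of dcp2 (14.8, 0.53 and 0 against 509.6, 519 and 3.29, adjusted p = 0.0532) did not pass.

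**Figure D5:**
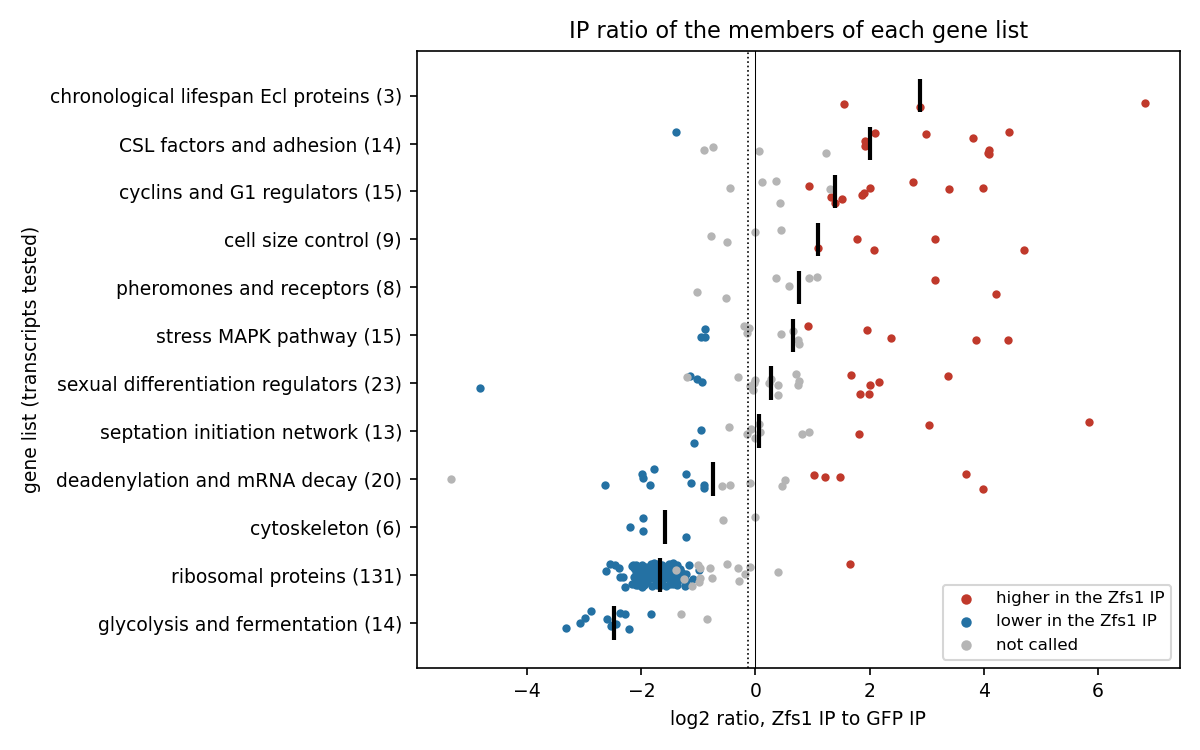
Log2 ratio of Zfs1 IP to GFP IP (horizontal axis) for each tested member of 12 gene lists (vertical axis, number tested in brackets), coloured by call, with the list median as a black bar and the median of all transcripts as a dotted line. Medians run from −2.48 for glycolysis to 2.88 for the 3 Ecl transcripts, and the lists of mating, stress and decay genes hold members on both sides.

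The zfs1 transcript itself, which holds 2 nonamers in the annotation, had 6637, 12264 and 7389 in the Zfs1 IPs against 1281, 2455 and 1301 in the GFP IPs (log2 ratio 2.24, SE 0.30, adjusted p = 0.000796). The zfs1-TAP::kanMX6 allele carries the tag and the marker after the coding sequence. The annotated 3′UTR copy may therefore be absent from the zfs1 mRNA of the Zfs1-TAP strain. The inputs of zfs1 did not differ in this way, with 2248, 1348 and 1361 against 1477, 1399 and 1016 (log2 ratio −0.09 after centring). The genes that differ between the genotypes were read as markers of the strains. The transcript of leu1, deleted in the mock strain, had 2152, 2832 and 1537 against 170.1, 601 and 228 (2.72, SE 0.41), with a larger input ratio of 3.49. The mating-type transcript mat1-Mc of h- cells had 488, 469 and 312.5 against values listed at 0 in every GFP IP and every GFP input. The M-factor transcript mfm2 (4.21) had an input ratio of 5.31. With the input difference subtracted, leu1 and mfm2 changed sign and neither passed (adjusted p = 0.229 and 0.513). The transcripts of ura4 and nmt1 were lower (−1.56 and −2.50) with inputs that differed by −0.04 and 0.19. The ura4 and nmt1 genes are the marker and the source of the promoter of the GFP-TAP construct, and its part in their reads was not tested.

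The inputs of the strains were compared as a description beside the IP ratio. With each library centred, the median log2 input ratio was 0.03 for the higher transcripts and 0.01 for the lower ones, and 18 of 1158 higher transcripts had inputs at least 2-fold higher in the Zfs1-TAP strain and 12 had inputs at least 2-fold lower, while 7 of 1415 lower ones had inputs at least 2-fold lower. Across the 5875 transcripts the IP ratio and the input ratio correlated with r = 0.09, a description over transcripts of the same libraries. With the input difference subtracted in a fit over 12 libraries, 1071 (18.2%) were higher and 1390 (23.7%) lower, of which 1021 and 1283 were the same transcripts as in the direct comparison, and none changed direction with a call in both.

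The zfs1Δ mutant gives a readout from libraries that the IP ratio did not use. Transcripts were called raised when they were at least 1.5-fold higher than in the wild type in each of the 2 experiments, which held for 142 of 5875 (2.42%), and lowered by the same rule in 169 (2.88%). Only 5377 of the 5875, and 1078 of the 1158 higher ones, reached 10 normalized counts in any RNA-Seq library. The rest could be neither raised nor lowered but are counted in the shares. Of the 142 raised transcripts, 102 were higher in the Zfs1 IP, 5 were lower and 35 were not called, with a median IP log2 ratio of 2.50. Of the 169 lowered ones, 21 were higher and 19 lower. Raised transcripts made up 8.81% of those higher in the Zfs1 IP, 0.353% of those lower and 1.06% of those not called. Among the higher transcripts the share was 16.5% with a nonamer and 3.94% without, and among those at least 8-fold higher with a nonamer it was 23.6%. Transcripts with a single nonamer in the 3′UTR were raised in 36 of 224 cases (16.1%), those with it in the coding sequence in 3 of 156 (1.92%) and those with it in the 5′UTR in 10 of 96 (10.4%), so that the order of these shares was not that of the IP ratios.

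In experiments 1 and 2 the mutant exceeded the wild type by a log2 ratio of 2.24 and 2.22 for arz1, 1.71 and 1.77 for oxr1, 2.11 and 2.06 for SPAC1B3.15c and 0.65 and 0.62 for puc1. By contrast, cdr1 had an IP ratio close to that of SPAC1B3.15c and mutant ratios of 0.24 and 0.27, and gpa2 had 0.04 and 0.03. For SPBC20F10.03, with 5 nonamers and an IP ratio of 3.66 (6002, 6616 and 2511 against 388, 339 and 265), the mutant ratios were 2.46 and 2.33. The transcript of ste11 was higher in the Zfs1 IP and lower in the mutant (−3.73 and −3.77), and byr1, lower in the mutant (−2.34 and −3.40), had an IP ratio of −0.01.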

How the data were processed

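RIP-Seq libraries of 3 experiments were compared. Per the labels and the methods, RNA was treated with DNase, depleted of ribosomal RNA and sequenced as strand-specific 100 bp paired ends, and the authors estimated read numbers per transcript with RSEM 1.1.19 and Bowtie 0.12.7 and normalized them with edgeR. The deposited values are a signal, normalized read counts that need not be whole, and the raw read number of each library is unknown. Totals without ribosomal RNA were 9385645 to 15687609 normalized counts. The 49 ribosomal RNA IDs, 0.0401% to 5.87% of a library, were left out of 7018, and 5875 of the remaining 6969 had a mean of at least 1 CPM. Experiment 1 stood apart for both baits, with 4.74% ribosomal RNA in its Zfs1 IP and 5.87% in its GFP IP. The IPs of experiments 2 and 3 held at most 0.0878%. Each library was centred on its median of log2(value + 1), so that fold changes of low transcripts are understated, and limma 3.58.1 (R 4.3.3) with an intensity trend tested Zfs1 IP against GFP IP, two-sided, with Benjamini-Hochberg adjustment. Simulated data with known changes were recovered for 42, 28, 39 and 38 of 50 transcripts at log2 changes of −3, −2, 2 and 3, with 4 unchanged transcripts called. That simulation used normal noise and changed far fewer transcripts than were called here, equally many in each direction. It therefore does not measure recovery or false calls in the real comparison. Annotation came from RefSeq ASM294v3, to which 159 IDs did not match. The authors mapped to an earlier PomBase release of the genome, so that transcript ends may differ.

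The named transcripts were the 12 most positive and 12 most negative called ones with a mean of at least 10 CPM and groups that do not overlap, members of gene lists, and strain markers. The comparison and the lists were chosen with earlier results of these data known. Transcripts with at least 10 counts in each library, those with 3 or more nonamers and lower ones with a nonamer were named by rules added after the values were seen. Other scalings, pseudocounts, filters, an untrended fit, the replicate block, subtraction of the inputs and omission of each library were tried as alternatives.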

Additional observations from a re-analysis of the deposited data

How the results depend on the processing

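Between 831 and 1252 transcripts were higher, and between 906 and 1353 lower, with any 1 library left out, and both lowest counts came without the Zfs1 IP of experiment 3. The replicate numbers were not taken to pair the samples, because deviations from the group means correlated between same-numbered libraries with 0.375, 0.249 and 0.0503, and with the replicate block 1288 transcripts were higher and 1592 lower. Of 56 named transcripts that were followed through every alternative, 9 lost the call in at least 1. Other named members of the gene lists were not among the 56. Some of them, such as tdh1, nda3, mei2 and not1, also lost the call under another scaling. With the input difference subtracted over 12 libraries, or over those of experiments 2 and 3, leu1 turned to −0.77 or −1.17 and mfm2 to −1.10 or −1.96, and mat1-Mc (0.48 or 0.14), gsf2 (0.48 or 0.18) and pfl3 (0.76 or 0.97) were not called, where the inputs of the strains differed in the same direction as the IPs. Under 1 of these subtractions tht2 and SPCC1450.15 were not called either. The calls of tyw3, tht2, SPCC1450.15, nmt1 and mfm2 were lost without some single libraries, and those of tyw3, tht2 and nmt1 also with no filter on low values, and the cause was not tested. Raw depth is unknown, which leaves counting error unquantified, and values of 0 may be failed estimates.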
